A study of Mus musculus with 6 samples.

Results

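The genes described here are Ccl11, Ccl24, Ccl17, Ccl22 and Ccl20, a set of CC chemokine genes chosen by name for their roles in drawing eosinophils and helper T cells. All 5 of 5 were found among the 19938 genes tested, each on a single probe set whose annotation gave exactly 1 symbol. RNA came from CD11b+Gr-1+ cells sorted out of the liver, which the labels call myeloid-derived suppressor cells. The C57BL/6 mice carried EL4 tumours, a transplanted T cell lymphoma, in both groups. In the Con A group the mice received Type IV Concanavalin A, a lectin from jack beans that stimulates T cells and causes hepatitis in mice, and in the PBS group they received PBS, with 3 arrays per group and cells taken 3 hours after injection. The labels give the dose both as 12.5 mg/kg and as 12.5 ug/kg, name the PBS samples untreated, state no age or sex, and do not say whether an array held 1 mouse or a pool, and p-values therefore reflect variation among these samples that can be technical in part.

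Chemokines are small secreted proteins that draw leukocytes along a gradient by binding receptors on their surface. Ccl11 and Ccl24 encode eotaxin-1 and eotaxin-2, which act through CCR3 on eosinophils and basophils. Ccl17 and Ccl22 encode TARC and MDC, made largely by dendritic cells and macrophages, which act through CCR4 on T helper 2 cells and regulatory T cells. Ccl20 encodes the ligand of CCR6, a receptor of T helper 17 cells, B cells and some dendritic cells, and it is not a classical attractant of T helper 2 cells. In macrophages, interleukin-4 and interleukin-13 acting through STAT6 induce Ccl24, Ccl17 and Ccl22, and NF-kB acts on Ccl20 in many cell types.

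The sequence before the start site is shown for the 3 genes matched in the RefSeq promoter table (GRCm38.p6). Ccl24 and Ccl11 had no entry in it, so none is shown for them. Of the 3 genes, Ccl17 and Ccl22 had the same order of arrays while Ccl20 stayed level. Each run holds the 250 bases before the listed start, 5′ to 3′ on the plus strand, at chr8:94810203-94810452 for Ccl17, chr8:94745434-94745683 for Ccl22 and chr1:83116516-83116765 for Ccl20. Capitals mark matches to the motifs that were searched.
Ccl17: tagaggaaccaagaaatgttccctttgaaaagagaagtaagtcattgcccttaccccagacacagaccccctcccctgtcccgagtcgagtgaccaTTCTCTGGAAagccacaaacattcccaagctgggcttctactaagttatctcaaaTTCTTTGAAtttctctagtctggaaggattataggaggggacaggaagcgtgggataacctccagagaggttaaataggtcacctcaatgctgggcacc
Ccl22: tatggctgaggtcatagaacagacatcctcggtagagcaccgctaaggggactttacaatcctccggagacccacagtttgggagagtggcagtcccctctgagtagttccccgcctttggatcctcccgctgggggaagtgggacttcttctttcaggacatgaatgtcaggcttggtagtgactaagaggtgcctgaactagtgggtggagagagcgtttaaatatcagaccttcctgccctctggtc
Ccl20: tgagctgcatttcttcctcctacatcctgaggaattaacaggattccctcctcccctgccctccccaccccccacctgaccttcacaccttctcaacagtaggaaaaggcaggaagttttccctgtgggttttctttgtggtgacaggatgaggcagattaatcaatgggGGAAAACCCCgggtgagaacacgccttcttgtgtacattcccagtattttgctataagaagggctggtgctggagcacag
The motifs were searched on both strands, and the shares are those of all 32851 windows of the table cut to the same length. They were the STAT6-type TTCNNNNGAA (5.85% of windows), the GAS-type TTCNNNGAA (7.02%), the AP-1-type TGANTCA (6.75%), TATAAA (12.4%) and the NF-kB consensus (3.9%). The Ccl17 window held 1 STAT6-type match, from 154 to 145 bases before the start, and 1 GAS-type match, from 99 to 91 bases before it. The Ccl20 window held 1 match to the NF-kB consensus, on the minus strand from 80 to 71 bases before the start. The Ccl22 window had no capitals, so these letters are not in it. No motif match was shared between the windows, and a match is a description of letters only.

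Values are log2 expression values of an Affymetrix gene array as the authors deposited them, so a difference of 1 is 2-fold. The table carries no detection calls, and the level of one probe set cannot be set against that of another. Array medians lay between 7.05 and 7.08. The sorted antigens were at high values in both groups, Itgam (CD11b) at 12.77 ± 0.04 after Con A and 12.92 ± 0.15 after PBS, and Ly6g, part of the Gr-1 epitope, at 13.51 ± 0.05 and 13.59 ± 0.09 (SD, n = 3 each). PBS replicate 3 stood apart from the other PBS arrays in many of the genes below, with the lowest weight of the 6 arrays when limma weighted arrays by their residual spread (0.527, against 0.824 to 1.31 for the others).

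After Con A, Ccl24 rose 13.8-fold and was the 1 member of 5 that passed the test (limma, Benjamini-Hochberg adjusted p under 0.05), where 4.59% of all 19938 genes rose and 7.22% fell. Ccl17 averaged 2.87-fold higher and Ccl22 1.72-fold higher after Con A, and neither passed. The arrays within each group ranged over several-fold for both genes. Ccl11 and Ccl20 lay below the array median in all 6 arrays and had differences of 0.01 and -0.06 (log2), and neither passed. The groups were fully separated for Ccl24 alone of the 5 genes, and 14.4% of all genes had every Con A array above every PBS array, 15.6% the reverse and 29.9% either.

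**Figure D1:**
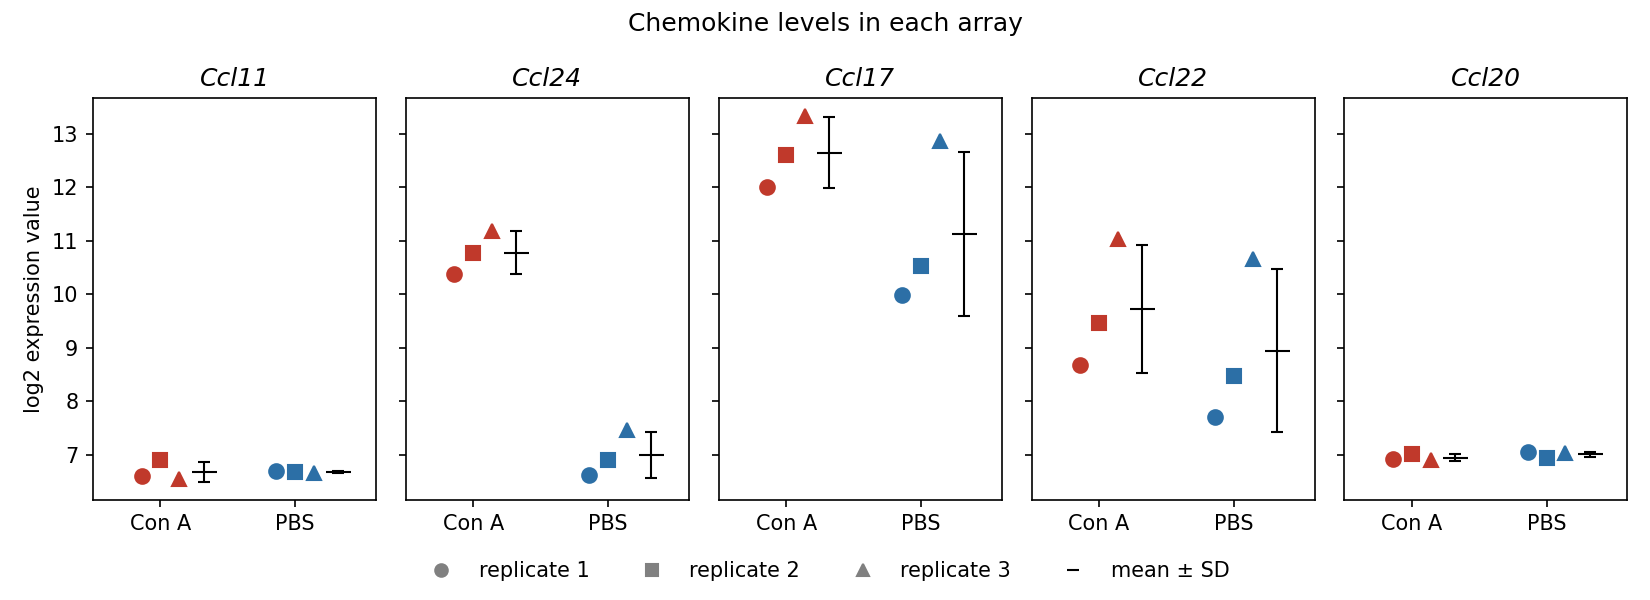
Log2 expression values (y axis) of the 5 chemokine genes in each Con A and PBS array, with replicates 1, 2 and 3 as circles, squares and triangles and the mean ± SD (n = 3) beside them. Ccl24 separates the groups, Ccl17 and Ccl22 span a wide range in both, and Ccl11 and Ccl20 stay near 7.

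Ccl24, eotaxin-2, had log2 values of 10.38, 10.78 and 11.19 in Con A replicates 1, 2 and 3, against 6.63, 6.90 and 7.46 in PBS replicates 1, 2 and 3. The lowest Con A array lay far above the highest PBS array. The means were 10.78 ± 0.41 after Con A and 6.997 ± 0.43 after PBS (SD, n = 3 each), a difference of 3.78 (95% interval 3.18 to 4.38, limma adjusted p = 0.000561). In PBS arrays the gene lay on either side of the array median, so its expression there is not established and the fold may be understated by the compression of low values in RMA. Leaving out each array in turn gave differences from 3.58 to 4.02, and all 6 of those fits passed. In sorted cells measured in bulk, a change in the number of cells of a type and a change in RNA per cell cannot be told apart.

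The other eotaxin gene, Ccl11, had 6.60, 6.90 and 6.56 in Con A replicates 1, 2 and 3, against 6.70, 6.68 and 6.66 in PBS replicates 1, 2 and 3. Its PBS values differed by no more than 0.041, and Con A replicate 2 was the highest of all. The difference of 0.01 had a 95% interval of -0.23 to 0.24 (limma adjusted p = 0.982). Its sign turned under 3 alternatives of scaling or weighting and when Con A replicate 2 or PBS replicate 3 was left out, so no direction is given. Con A replicate 2 was also the array with the highest mean over 10 hepatocyte markers, at 7.90. Con A replicates 1 and 3 had 7.24 and 7.21, and PBS arrays 7.17 to 7.25. The means over Kupffer cell markers (9.22) and over endothelial, stellate and fibroblast markers (7.18) were highest in that array too. The part of RNA from any of these cells in the Ccl11 value was not tested. None of the 10 hepatocyte markers passed (0 rose and 0 fell), where 4.59% of all genes rose and 7.22% fell. Their largest difference was 0.86 for Alb, the albumin gene (limma adjusted p = 0.381).

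Ccl7, which encodes a monocyte attractant and lies next to Ccl11, rose, with means of 9.14 after Con A and 7.37 after PBS (a difference of 1.77, limma adjusted p = 0.0234). Neighbours were taken from the RefSeq gene order of GRCm38.p6, up to 2 protein-coding genes on each side, a choice made after the members' values were known. Ccl12 lies on the other side of Ccl11 and differed by 0.35 (limma adjusted p = 0.224). Next to Ccl24, Ccl26 had a mean of 6.10 after Con A and 6.15 after PBS (difference -0.04, limma adjusted p = 0.736), and Rhbdd2 differed by 0.04 (limma adjusted p = 0.867). Hip1, further out, differed by -0.67 (limma adjusted p = 0.0562), and Por had no row with 1 symbol.

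Ccl17 had log2 values of 11.999, 12.61 and 13.33 in Con A replicates 1, 2 and 3, against 9.98, 10.53 and 12.87 in PBS replicates 1, 2 and 3. PBS replicate 3 was higher than Con A replicates 1 and 2, so the groups overlapped. The means were 12.65 ± 0.66 after Con A and 11.13 ± 1.53 after PBS (SD, n = 3 each). The difference of 1.52 had a 95% interval of -0.14 to 3.18 (limma adjusted p = 0.245). Leaving out PBS replicate 3 moved it to 2.39 (limma adjusted p = 0.00463), and leaving out PBS replicate 1 to 0.95 (limma adjusted p = 0.491). Without both arrays numbered 3, an alternative chosen after seeing the data, it was 2.05 (95% interval 1.47 to 2.63, limma adjusted p = 0.00369).

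Ccl22 had log2 values of 8.68, 9.46 and 11.04 in Con A replicates 1, 2 and 3, against 7.71, 8.47 and 10.65 in PBS replicates 1, 2 and 3. Again PBS replicate 3 exceeded Con A replicates 1 and 2. The means were 9.73 ± 1.20 after Con A and 8.94 ± 1.53 after PBS (SD, n = 3 each), and the difference of 0.79 had a 95% interval of -1.14 to 2.71 (limma adjusted p = 0.622). Leaving out PBS replicate 3 moved the difference to 1.64 (limma adjusted p = 0.139), leaving out PBS replicate 1 to 0.17 (limma adjusted p = 0.929) and leaving out Con A replicate 3 to 0.13 (limma adjusted p = 0.941).

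**Figure D2:**
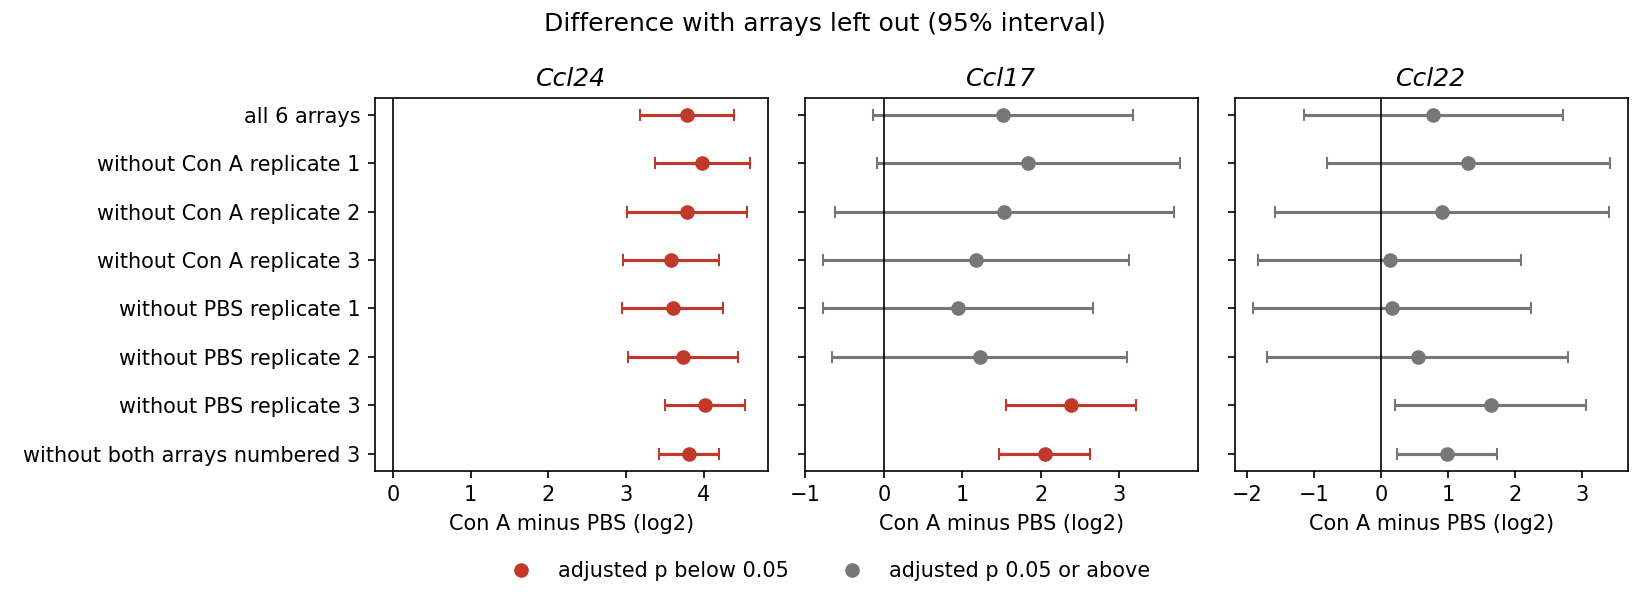
Difference between Con A and PBS on the log2 scale (x axis, point with 95% interval) for Ccl24, Ccl17 and Ccl22 with all 6 arrays and with arrays left out (y axis); red points have an adjusted p below 0.05. Ccl24 stays between 3.58 and 4.02, whereas Ccl17 passes without PBS replicate 3 and Ccl22 in none of these fits.

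Both CCR4 ligand genes put the 6 arrays in the same order from low to high, PBS replicates 1 and 2, Con A replicates 1 and 2, PBS replicate 3 and Con A replicate 3. Among PBS arrays Ccl17 ranged over 2.89 on the log2 scale (7.39-fold) and Ccl22 over 2.94 (7.68-fold). Their SD over PBS arrays, 1.53 for each, ranked 2 and 4 among 19938 genes, whose median SD was 0.108. Tspan3 ranked 1, and Il7r, the interleukin-7 receptor gene, ranked 5. Among Con A arrays the range was 1.33 (2.51-fold) for Ccl17 and 2.35 (5.12-fold) for Ccl22, with ranks of 130 and 9. Ccl24 had an SD of 0.43 over PBS arrays, which 4.03% of genes reached or exceeded, and it too was highest in replicate 3 of each group. The SDs of Ccl11 and Ccl20 over PBS arrays, 0.02 and 0.05, were below the median of all genes.

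**Figure D3:**
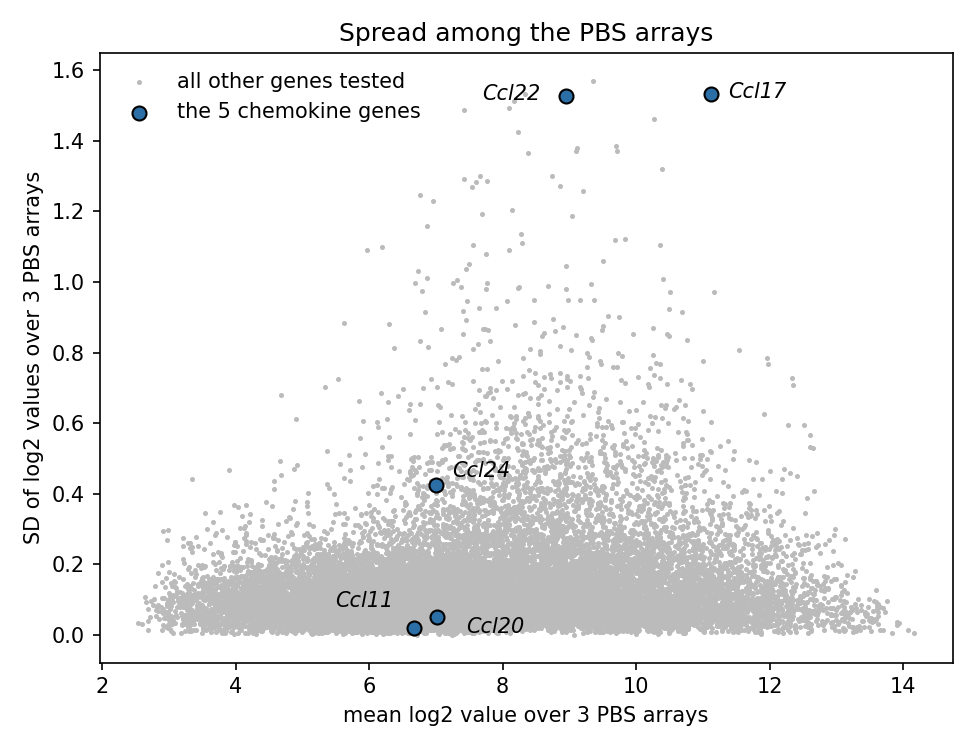
SD over the 3 PBS arrays (y axis, log2 units) against the mean over those arrays (x axis, log2 units) for all 19938 genes in grey and the 5 chemokine genes in blue. Ccl17 and Ccl22 sit at the upper edge with an SD of 1.53, and Ccl11 and Ccl20 near the bottom.

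Ccl20 had 6.92, 7.02 and 6.90 in Con A replicates 1, 2 and 3, against 7.04, 6.95 and 7.03 in PBS replicates 1, 2 and 3. The groups overlapped within a narrow band. The difference was -0.06 (95% interval -0.23 to 0.11, limma adjusted p = 0.659), and it kept its sign in all 15 alternatives that gave it a value. With values below the array median in every array and no detection calls, expression of Ccl11 and Ccl20 in these cells is not established.

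None of the 6 receptor genes of these chemokines passed (0 rose and 0 fell), where 4.59% of all genes rose and 7.22% fell. Without PBS replicate 3, 0 of 6 rose, where 5.59% of all genes (1114) rose in that fit. With all 6 arrays, 4926 of all 19938 genes had an unadjusted limma p under 0.05. Ccr3, the eotaxin receptor, had log2 values of 9.43, 8.76 and 9.37 in Con A replicates 1, 2 and 3, against 8.06, 8.96 and 8.28 in PBS replicates 1, 2 and 3. PBS replicate 2 lay above Con A replicate 2, so the groups overlapped, and the difference was 0.75 (95% interval 0.14 to 1.36, limma adjusted p = 0.121). Ccr4, the receptor of the Ccl17 and Ccl22 products, was at 5.89 ± 0.03 after Con A and 5.80 ± 0.07 after PBS. Ccr6, the receptor of the Ccl20 product, was at 5.89 ± 0.01 and 5.75 ± 0.13 (SD, n = 3 each). The decoy receptor genes Ackr1, Ackr2 and Ackr4, whose products bind chemokines without classical signalling, differed by -0.01, -0.03 and -0.09.

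Of 13 other measured CC chemokine genes, 2 rose and 0 fell, where 4.59% of all genes rose and 7.22% fell. Their median difference was 0.21, against 0.02 for all genes. Ccl4, which encodes MIP-1 beta, rose by 1.84 (limma adjusted p = 0.0187), and Ccl7 rose by 1.77. Dropping single arrays ended the Ccl4 call in 4 of 6 fits (limma adjusted p up to 0.0874) and the Ccl7 call in 3 of 6 (up to 0.082). Without PBS replicate 3, 4 of the 13 rose, in the fit where 1114 of all 19938 genes rose, against 915 with all 6 arrays.

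**Figure D4:**
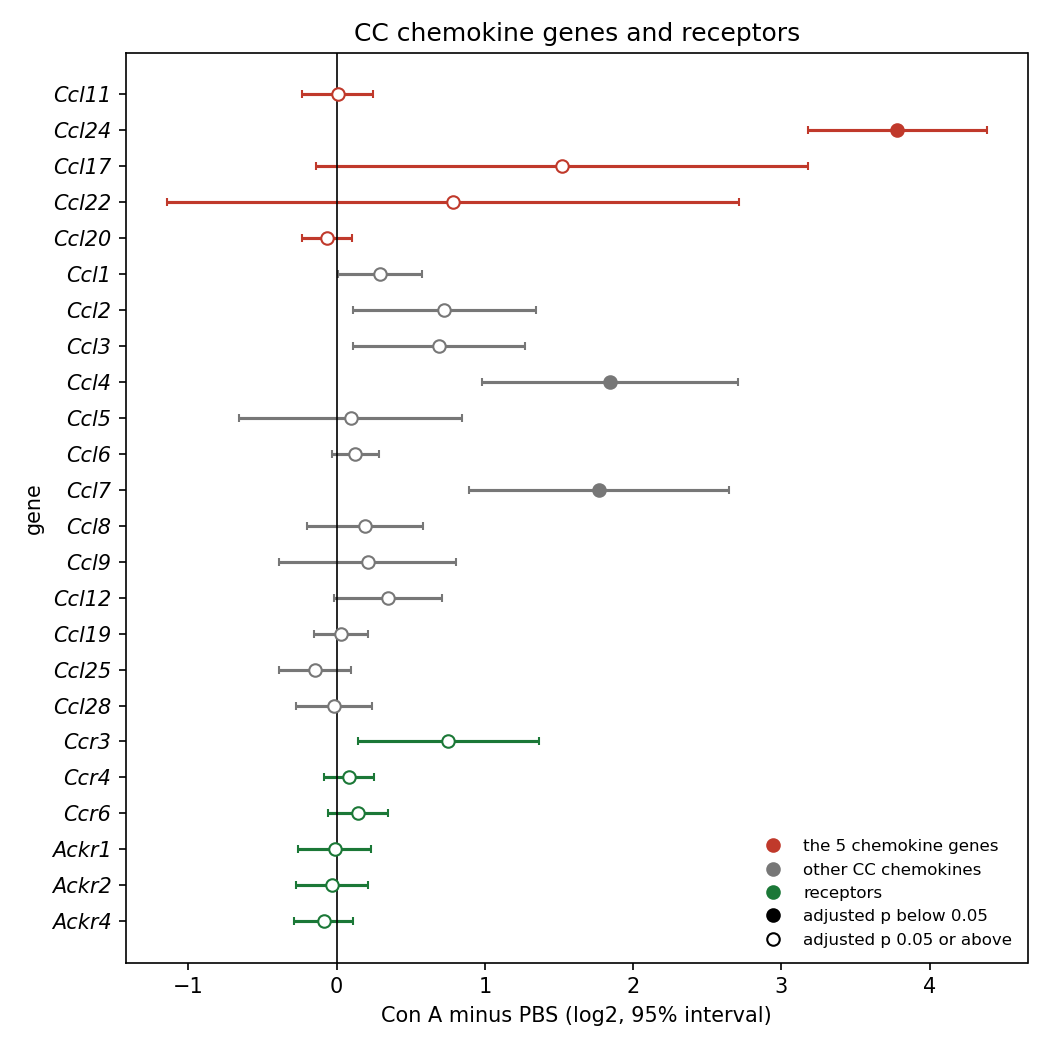
Difference between Con A and PBS on the log2 scale (x axis, point with 95% interval) for the 5 chemokine genes in red, 13 other CC chemokine genes in grey and 6 receptor genes in green (y axis); filled points have an adjusted p below 0.05. Ccl24, Ccl4 and Ccl7 are the filled points, and no receptor gene is.

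Among 8 type 2 cytokine genes, 1 rose and 0 fell, where 4.59% of all genes rose and 7.22% fell. Their median difference was 0.08. Il4, which encodes interleukin-4, had 8.73, 8.02 and 8.89 in Con A replicates 1, 2 and 3, against 7.52, 7.85 and 7.27 in PBS replicates 1, 2 and 3. All Con A arrays lay above the PBS arrays, with Con A replicate 2 close to PBS replicate 2. It rose by 1.00 (limma adjusted p = 0.0369), and dropping single arrays ended the call in 4 of 6 fits (limma adjusted p up to 0.127), among them the fit without PBS replicate 3, where 0 of the 8 genes passed. Il13 was at 8.002 after Con A and 7.59 after PBS (difference 0.41, limma adjusted p = 0.111). Il5, Il9, Il25, Il31, Il33 and Tslp differed by between -0.03 and 0.10.

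The receptor and signalling arm of interleukin-4 and interleukin-13 had 0 of 8 measured members past the threshold, where 4.59% of all genes rose and 7.22% fell. Irf4, a transcription factor of alternative macrophage activation and dendritic cells, differed by 0.91 (limma adjusted p = 0.127), Il4ra by 0.35 and Stat6 by -0.22. Without PBS replicate 3, where 5.59% of all genes rose, 3 of these 8 rose, and 3 also rose without both arrays numbered 3, where 4.43% of all genes did.

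Alternative activation is a macrophage state that interleukin-4 induces and in which Ccl24, Ccl17 and Ccl22 are made. Of 14 of its genes, 4 rose and 1 fell, where 4.59% of all genes rose and 7.22% fell. Their median difference was 0.23. Mrc1, the mannose receptor gene, rose by 1.69 (limma adjusted p = 0.00292), Cdh1, the E-cadherin gene, by 1.43, Arg1, arginase 1, by 1.00 and Tgm2, a transglutaminase gene, by 0.91. Fn1, which encodes fibronectin, fell by 0.72. Pdcd1lg2 had the largest difference of the list, 1.78, with every Con A array above every PBS array, and did not pass (limma adjusted p = 0.0586). Chil3 and Retnla, which interleukin-4 induces in mouse macrophages, differed by 0.22 and 0.49 and did not pass (limma adjusted p = 0.241 and 0.272). Chil3 was at 13.34 after Con A and 13.13 after PBS, high values at which RMA can compress a difference. The call of Tgm2 was lost without Con A replicate 2, Con A replicate 3 or PBS replicate 1, and that of Fn1 without PBS replicate 1.

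Of the 14 alternative activation genes, 8 had the highest value of both groups in the arrays numbered 3, as 15.5% of all genes did. Mrc1 did not, with 6.67, 6.89 and 6.68 in PBS replicates 1, 2 and 3, and Chil3 was lowest in replicate 3 of each group. Among the 8 were 3 lectin genes, highest there as Ccl17 and Ccl22 were. Their array order was otherwise not the same. Con A replicate 1 lay below PBS replicate 2 in all 3, and above it in Ccl17 and Ccl22. Mgl2, a galactose-type lectin gene of dendritic cells and macrophages, had 7.65, 8.17 and 9.80 in Con A replicates 1, 2 and 3, against 7.31, 7.92 and 9.92 in PBS replicates 1, 2 and 3. Cd209a, a lectin gene of monocyte-derived dendritic cells, had 9.14, 9.37 and 11.52 in Con A replicates 1, 2 and 3, against 9.20, 9.17 and 11.13 in PBS replicates 1, 2 and 3. In both genes, replicate 3 of each group stood above the other 4 arrays. Clec10a, a related lectin gene, had 6.22, 6.63 and 7.52 in Con A replicates 1, 2 and 3, against 6.32, 6.25 and 8.04 in PBS replicates 1, 2 and 3. The differences between the groups were 0.16 for Mgl2, 0.17 for Cd209a and -0.08 for Clec10a (limma adjusted p = 0.928, 0.917 and 0.949).

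None of 10 dendritic cell markers passed (0 rose and 0 fell), where 4.59% of all genes rose and 7.22% fell. Their mean log2 level was 7.50, 7.79 and 8.33 in Con A replicates 1, 2 and 3, against 7.62, 7.57 and 8.33 in PBS replicates 1, 2 and 3. Of the 10, 8 had their highest PBS value in PBS replicate 3 (32.6% of all genes did), 6 had their highest Con A value in Con A replicate 3 (29.2%) and 6 did both (15.5%). Ccr7 had 8.28, 8.68 and 10.24 after Con A, against 8.22, 8.25 and 9.78 after PBS. Batf3, a transcription factor gene of cross-presenting dendritic cells, had the largest difference of the list, 0.72 (limma adjusted p = 0.118). Among genes that define conventional and plasmacytoid dendritic cells, Flt3, Xcr1 and Siglech lay below the array medians in all arrays. Clec9a had 6.53, 7.09 and 6.855 in Con A replicates 1, 2 and 3, against 6.94, 7.06 and 6.70 in PBS replicates 1, 2 and 3. Zbtb46 had 7.33, 7.47 and 7.61 in Con A replicates 1, 2 and 3, against 7.33, 7.12 and 7.86 in PBS replicates 1, 2 and 3. Itgax, which encodes CD11c, had 9.12, 9.72 and 10.62 after Con A, against 10.21, 9.74 and 11.53 after PBS. The part of dendritic or other antigen-presenting cells in the Ccl17 and Ccl22 values was not tested.

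**Figure D5:**
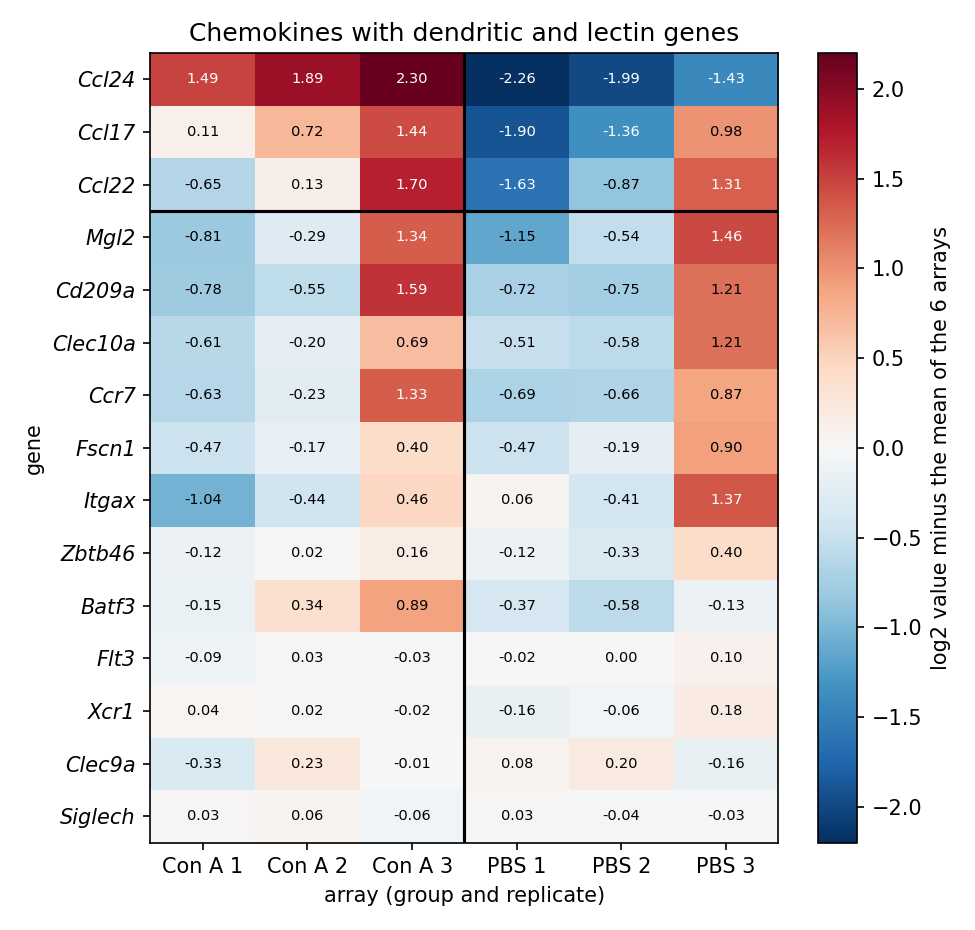
Log2 value minus the mean of the 6 arrays (colour and printed number) for Ccl24, Ccl17, Ccl22, the lectin genes Mgl2 and Clec10a and 10 dendritic cell markers (rows) in each array (columns, Con A left of PBS). Ccl17, Ccl22, Mgl2, Cd209a and Ccr7 are high in replicate 3 of both groups, and Ccl24 is high in all Con A arrays.

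Of 10 genes of NF-kB subunits and inhibitors, 8 rose and 0 fell, where 4.59% of all genes rose and 7.22% fell. Their median difference was 0.99. Relb rose by 1.20 (limma adjusted p = 0.00634), Nfkb2 by 1.03, Rela by 0.42, and the genes of inhibitors or relatives of them Tnfaip3 by 1.74, Bcl3 by 1.05, Nfkbie by 1.04, Nfkbia by 0.95 and Nfkbib by 0.66. All 10 had their highest PBS value in PBS replicate 3, as 32.6% of all genes did. The calls of Relb, Tnfaip3 and Nfkbib held in all 6 fits with 1 array left out, and those of the other 5 were lost in 2 to 4 of them, in each case including the fits without Con A replicate 2 and without PBS replicate 1.

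A list of 9 cytokine genes held possible inducers of at least 1 of these chemokines in some cell type, and their action in the sorted cells was not tested. Of the 9, 4 rose and 0 fell, where 4.59% of all genes rose and 7.22% fell. Il1a rose by 4.18, Il6 by 2.93, Ifng by 1.29 and Tnf by 1.15 (limma adjusted p = 0.00286, 0.0104, 0.0118 and 0.00604). The call of Ifng was lost without PBS replicate 1. Csf2 and Il17a, inducers of Ccl17 and Ccl20 in other systems, stayed below 7 in all arrays and differed by -0.02 and -0.001. Of 4 protease genes whose products cleave chemokines, 0 rose and Mmp9 fell by 0.58, and Dpp4, whose product trims Ccl11 and Ccl22 proteins, differed by -1.04 (95% interval -2.36 to 0.28, limma adjusted p = 0.319).

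Eosinophils and basophils carry CCR3, and eosinophils are a possible part of a CD11b+ sort. Of 8 eosinophil markers 5 rose and 0 fell, Epx by 1.13, Prg2 by 1.05, Prg3 by 0.81, Siglecf by 0.67 and Ear6 by 0.57. Over all genes, 4.59% rose and 7.22% fell. The mean level of the eosinophil list was 9.95, 9.49 and 9.97 in Con A replicates 1, 2 and 3, against 8.83, 9.46 and 9.04 in PBS replicates 1, 2 and 3. The groups thus nearly met at replicate 2 of each. Dropping single arrays ended the calls of Epx, Prg2 and Prg3 in 4 of 6 fits each, of Siglecf in 5 and of Ear6 in 1. Without PBS replicate 3 only 1 of the 8 rose, where 5.59% of all genes did. Of 9 basophil and mast cell markers 2 rose and 0 fell, Kit by 1.43 and Gata2 by 0.85, and the Gata2 call ended in 5 of 6 such fits. The part of these cells in the Ccl24 result was not tested.

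Macrophages can make Ccl24, and Kupffer cells are the resident macrophages of the liver. Of 12 Kupffer cell markers 0 rose and 1 fell (Slc40a1, which fell by 1.19), and the list mean was 7.74, 9.22 and 8.23 in Con A replicates 1, 2 and 3, against 7.85, 8.17 and 8.11 in PBS replicates 1, 2 and 3. The part of Kupffer cells in the Ccl24 result was not tested. For this and the lists that follow, 4.59% of all genes rose and 7.22% fell. Of 9 monocytic markers 2 rose (Irf8 by 0.98 and Cd14 by 0.82) and 3 fell, with differences of -2.16 for F13a1, -2.005 for Ccr2 and -1.80 for Cx3cr1. Of 10 granulocytic markers 0 passed (the largest difference was -0.18 for Csf3r, limma adjusted p = 0.387). The means of those 10 over all arrays lay from 12.715 to 13.754, near the array maxima of 14.239 to 14.301. RMA compresses very high values, so a change in these markers can be missed. Of 10 T cell genes 2 rose, Il2ra by 1.94 and Ctla4 by 0.58, with Foxp3 and Gata3 at differences of -0.02 and 0.04. The T cell markers Cd3e, Cd3d, Cd3g and Cd4 differed by between -0.11 and 0.08 and did not pass, nor did Cd8a (0.175) and Il7r (0.46). Of 7 NK and B cell markers Ms4a1 fell by 0.45, and of 11 endothelial, stellate and fibroblast markers Lyve1 fell by 1.33. Of these calls, those of Irf8, Cd14, Il2ra, Ctla4, Ms4a1 and Lyve1 were lost when PBS replicate 1 was left out, among other arrays.

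The genes most like each member were ranked by Pearson's r over the 6 arrays among 1649 named genes that ranged over at least 1 on the log2 scale. All points share the 2 groups, so a high r is reached by any gene with a similar shift. For Ccl24 these were Tec, a kinase gene (r = 0.999), Abhd17c (0.999), Zfp456 (0.997), Rab33a (0.997) and the immunoproteasome gene Psmb9 (0.997). For Ccl17 they were Gtpbp4 (0.994), Fnbp1l (0.994), Eef1e1 (0.992), the metallothionein gene Mt2 (0.989) and Nufip1 (0.989), none of which passed the test between the groups. For Ccl22 they were the repressor gene Etv3 (0.987), Ust (0.982), Slc11a2 (0.980), Il7r (0.980) and Lpxn (0.979), and none passed either. Ccl11 was most like Apoc1 (0.921), Fgg (0.893), Ahsg (0.879), Fgb (0.865) and C1qa (0.862), of which the first 4 are hepatocyte genes. Ccl20 was most like Vnn3 (0.881) and Stard9 (0.878).

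With each group centred on its own mean, which leaves differences within groups only, Ccl24 was most like Sdc4 (r = 0.998), Plet1 (0.996) and Maff (0.995). Ccl22 was then most like Emp1 (0.999), Mgl2 (0.998), Dab2 (0.993), Fscn1 (0.992), a gene of mature dendritic cells, and Rnf217 (0.990). Ccl17 was most like Ddx1 (0.999), Bco2 (0.995), Dnajb4 (0.995), Phf11a (0.994) and Fnbp1l (0.994). With so few arrays, a gene highest in the arrays numbered 3 can reach a high r here, so a high r is not particular to the named genes. Dab2 was among the 5 nearest genes of both Ccl24 (0.990) and Ccl22, with 9.60, 9.92 and 10.47 in Con A replicates 1, 2 and 3, against 7.15, 7.58 and 8.23 in PBS replicates 1, 2 and 3. It was higher in every Con A array than in any PBS array and highest in replicate 3 of each group.

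Ccl22 and Ccl17 lie close together on chromosome 8, with Cx3cl1, which encodes fractalkine, as the 1 protein-coding gene between them in the RefSeq gene order. Cx3cl1 had 6.79, 6.89 and 6.79 in Con A replicates 1, 2 and 3, against 6.66, 6.54 and 7.19 in PBS replicates 1, 2 and 3, a difference of 0.03 (limma adjusted p = 0.94). PBS replicate 3 was its highest array and Con A replicate 3 was not raised. Ciapin1, the next gene after Ccl17, rose by 0.84 (limma adjusted p = 0.00474) with 9.98, 9.91 and 9.78 in Con A arrays, against 8.91, 8.96 and 9.29 in PBS arrays. The array order of Ccl17 and Ccl22 was not that of these genes beside them.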

How the data were processed

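Total RNA of 6 samples, 3 per group, was amplified, biotin-labelled and hybridised to 1 array each, per the labels' protocols. Log2 expression values were deposited by the authors, and the submitters' processing notes list RMA and Partek with no version or option. RMA corrects background, equalises array distributions and summarises probes, and it compresses low and very high values. Of 35556 rows, 21789 had 1 symbol, 1621 several and 12146 none. A gene with several rows was represented by the brightest on average, leaving 19938 genes. The sources used here give no genome build for the array. No arrays were identical (0 pairs). Precision is limited by the small number of arrays.

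The 2 groups were fitted with limma 3.58.1 (lmFit, eBayes, R 4.3.3) without covariates, tests were two-sided, and p-values were adjusted by Benjamini-Hochberg over the 19938 genes at a threshold of 0.05. Differences are Con A minus PBS, with 95% intervals of the moderated fit. Of all genes, 915 rose and 1440 fell (11.8%). On simulated data with 19938 genes the fit recovered 52.2%, 94.9% and 99.7% of genes changed by 0.5, 1 and 2 on the log2 scale, and 6.27% of calls were false. The simulated noise was independent and normal, with the same SD in every array of a gene, and few genes were changed. No simulated array stood apart as PBS replicate 3 did. These shares therefore need not hold for the measured arrays, least of all for genes as variable as Ccl17 and Ccl22.

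The members and the 18 lists (183 entries with the members, 173 matched to a tested gene) were chosen with earlier results of these data known. Text names the members, list members past the threshold (where none passed, the one with the largest difference), receptors, type 2 cytokines, cell-defining markers and, for likeness, up to 5 genes with the highest r. Other genes named with values, among them Clec10a, Dpp4, Chil3, Retnla, Pdcd1lg2 and chromosomal neighbours, were chosen after their values were seen. Alternatives covered row choice, dim genes, moderation, scaling, array weights, replicate number and arrays left out. Python 3.11.15, pandas 2.3.3 and matplotlib 3.10.9 made tables and plots.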

Additional observations from a re-analysis of the deposited data

How the results depend on the processing

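Ccl24 kept its rise and its call in all 16 alternatives (differences of 3.58 to 4.02, limma adjusted p up to 0.0343 without moderation). Ccl17 was positive in all 16, ranging over 0.95 to 2.39 with 1 array left out, and it passed without PBS replicate 3 (2.39), without both arrays numbered 3 (2.05) and with the replicate block. Ccl22 was positive in all 16 (0.13 to 1.64 with 1 array left out). With the replicate number as a block, Ccl17 differed by 1.52 (limma adjusted p = 0.0209) and Ccl22 by 0.79 (0.0129), and the block gave 2539 genes. The numbers are not shown to pair the samples, as deviations of same-numbered arrays correlated at 0.228, -0.17 and 0.555, and Con A replicates 1 and 2 correlated best with PBS replicates 2 and 1. Ccl11 turned sign to -0.04 with quantile normalization repeated, -0.007 with median centring, -0.022 with array weights, -0.101 without Con A replicate 2 and -0.006 without PBS replicate 3, and its range with 1 array left out was -0.101 to 0.071. Ccl20 kept its sign in 15 alternatives (-0.10 to -0.03). Ccl11 and Ccl20 had no value among genes above the median level. The count of genes past the threshold, 2355, was 671 without moderation, and 1140 to 2765 with 1 array left out, the arrays that moved it most being PBS replicate 1 (1140), Con A replicate 2 (1272) and Con A replicate 3 (1480). The causes of these changes were not tested. With 3 arrays a group, Ccl17 and Ccl22 had intervals over 3 log2 units wide.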
